A study of Mus musculus with 6 samples.

Results

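The core circadian clock genes of mouse kidney cortex were examined in mice lacking the receptor of the complement fragment C3a. The members were Arntl, Clock, Npas2, Per1, Per2, Per3, Cry1, Cry2 and Rora, taken as every transcript spot whose gene name in the array files equalled one of these 9 symbols. This gave 23 of the 56605 distinct probes on the array, of which 19 were bright enough to test, and all 9 genes were among the 20489 genes tested. The series compared 3 C3aR-/- control arrays with 3 WT control arrays, each of cortical RNA from male mice of strain C57BL/6. Neither genotype had induced diabetes: per the labels, the mice entered the study aged 8 weeks, ate chow in which fat gave 10% of the calories, received vehicle in place of streptozotocin, and were killed 20 weeks after induction. The hour of killing, the design of the C3aR-/- allele and whether each array held 1 animal are not given in the sources used here, and p-values may therefore reflect only technical spread between the arrays.

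The clock is a feedback loop of transcription that runs in nearly every cell, tubule cells included. The proteins of Arntl (BMAL1) and Clock, or of Clock's relative Npas2, pair and bind E-box sequences to activate the Per and Cry genes, whose proteins return to the nucleus and repress that pair. A second loop sets the level of Arntl, which the ROR receptors (Rora among them) activate and the REV-ERB receptors (Nr1d1 and Nr1d2) repress through a shared DNA element. Because the loop turns once a day, the level of Arntl is normally high when those of the REV-ERB and D-box genes are low. In the kidney the clock is known for the daily rhythm of salt and water excretion.

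Levels below are log2 processed signal relative to the 75th percentile of the array, and each difference is C3aR-/- minus WT on that log2 scale. A level can be compared between arrays for one probe, and not between probes. Differences were tested with limma over all genes or all probes, two-sided, and a gene or probe passed at a Benjamini-Hochberg adjusted p under 0.05. In bulk tissue, fewer cells of a type and less RNA per cell cannot be told apart. All 3 C3aR-/- arrays were on one slide and all 3 WT arrays on another, so genotype and slide cannot be told apart in any difference below.

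Of 46 marker genes of kidney and other cell types, 36 were well above background on all 6 arrays, among them every marker of proximal tubule. Another 6 were on none, among them Adipoq and Plin1 of fat, and Cyp11b1 and Cyp11a1 of adrenal cortex. The remaining marker of fat, Cidec, was well above background on 3 arrays, and that of adrenal cortex, Star, on all 6. The arrays had 56.5% to 59.3% of transcript spots well above background and no saturated spot. C3aR-/- replicate 1 stood apart, with 145 spots marked as non-uniform, where the other arrays had 2 to 8. Its value on the second principal component was 30.2, against -20.0 and -18.7 on C3aR-/- replicates 2 and 3 and 1.74 to 4.70 on the WT arrays. The first component set the genotypes, and so the slides, apart. It was 36.9, 21.4 and 24.2 on C3aR-/- replicates 1 to 3 and -29.3 to -26.1 on WT arrays, with C3aR-/- replicate 1 farthest from WT. The 3 collecting duct markers all passed as higher in C3aR-/- cortex, and 3 of 5 B cell and plasma cell markers passed as lower, with average log2 levels of -3.68 to -3.20 on C3aR-/- arrays and -2.48 to -1.91 on WT arrays. Of the other lists, 1 of 7 proximal tubule markers passed as higher, 1 of 4 myeloid, 1 of 2 distal tubule and 1 of 2 intercalated cell markers as lower, and endothelium had 1 of 3 in each direction. No tested marker of thick limb, podocyte, inner medulla, T cells, adrenal cortex or red blood cells passed. Over all genes, 7.06% passed as higher and 7.27% as lower. The part of cell mixture in the clock genes was not tested. The C3ar1 probe was well above background on 1 of 6 arrays, at -5.60, -5.47 and -6.05 in C3aR-/- replicates 1 to 3 and -5.03, -6.17 and -5.60 in WT replicates 1 to 3. The deleted stretch of the gene is unknown here, so this probe cannot test the labels.

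The stretches below, upstream of the members' RefSeq start sites (GRCm38.p6, minus strand of each chromosome), show the elements through which the loop is known to act. They are given for Cry1, the member that passed by its brightest probe, for its paralogue Cry2, which did not, and for Per3, the member with D-box matches. Capitals mark the E-box CACGTG, the related E'-box CACGTT (read on the other strand as AACGTG) and the D-box TTANGTAA, each searched on both strands.
Cry1, chr10:85185055-85185174, bases 120 to 1 before the start: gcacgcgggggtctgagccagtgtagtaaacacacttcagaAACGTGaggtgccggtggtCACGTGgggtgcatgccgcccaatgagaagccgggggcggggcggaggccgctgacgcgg
Cry2, chr2:92434170-92434269, bases 200 to 101 before the start: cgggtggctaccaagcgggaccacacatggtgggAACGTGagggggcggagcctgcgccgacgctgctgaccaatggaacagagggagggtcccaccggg
Per3, chr4:151044796-151044915, bases 250 to 131 before the start: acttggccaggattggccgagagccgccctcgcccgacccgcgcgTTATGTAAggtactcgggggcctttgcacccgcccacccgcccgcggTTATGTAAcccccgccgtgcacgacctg

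RefSeq windows of 300 bases, from 250 before to 50 after a start, were at hand for 8 of the 9 members, in 12 windows. Per2 had no window, so it was not searched for any element. The Cry1 window held an E-box beginning 60 bases before the start and an E'-box at 79. An E'-box lay 166 bases before the Cry2 start, an E-box 166 bases before one of 2 Per1 starts, and D-boxes 205 and 158 bases before the Per3 start. Over all 32851 windows the E-box was in 7.15%, the E'-box in 4.68% and the D-box in 2.32%. The ROR and REV-ERB element was searched as TAGGTCA (2.61% of windows) and TGGGTCA (3.98%). It matched once among the members, as TAGGTCA 31 bases after one of 2 Arntl starts. Neither the cAMP element TGACGTCA (1.79%) nor the glucocorticoid element (0.475%) matched any of the 12 windows. A match is a run of letters and not evidence of binding.

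One of the 9 core clock genes passed: Cry1 was 2.36-fold lower in C3aR-/- cortex, a log2 difference of -1.24. One C3aR-/- array was not well above background, and the difference was -1.17 with that array at its floor and -0.50 with normexp background correction. Cry1 entered the test only through the WT arrays, where it is the brighter. With probes required to be well above background on all 6 arrays, Cry1 was not tested and 0 of 7 members passed. The share of the members that passed, 11.1%, compares with 14.3% of all genes (7.27% lower and 7.06% higher), and no member passed as higher. The other 8 genes did not pass by the brightest probe, although a second probe of Rora did, at 1.63-fold higher. A negative difference was found in 7 of the 9, against 47.4% of all genes, and the median of the 9 was -0.25, against 0.02 over all genes. The 7 include Per1 at -0.08 and Cry2 at -0.15, whose signs turned in 2 and 1 of 15 alternatives. At an unadjusted p under 0.05 there were 4 members (Clock and Cry1 lower, Per3 and Rora higher), 44.4% of the 9 against 33.4% of all genes. The groups did not overlap in 3 of the 9 (Clock, Per3 and Cry1), 33.3% against 41.3% of all genes. By probe, 2 of 19 passed (10.5%), against 11.6% of the 30866 probes tested (6.18% higher and 5.47% lower). The groups did not overlap for 8 of the 19 probes (42.1%), against 39.6% of all probes. The share that passed was thus near that of the whole array, by gene and by probe.

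**Figure D1:**
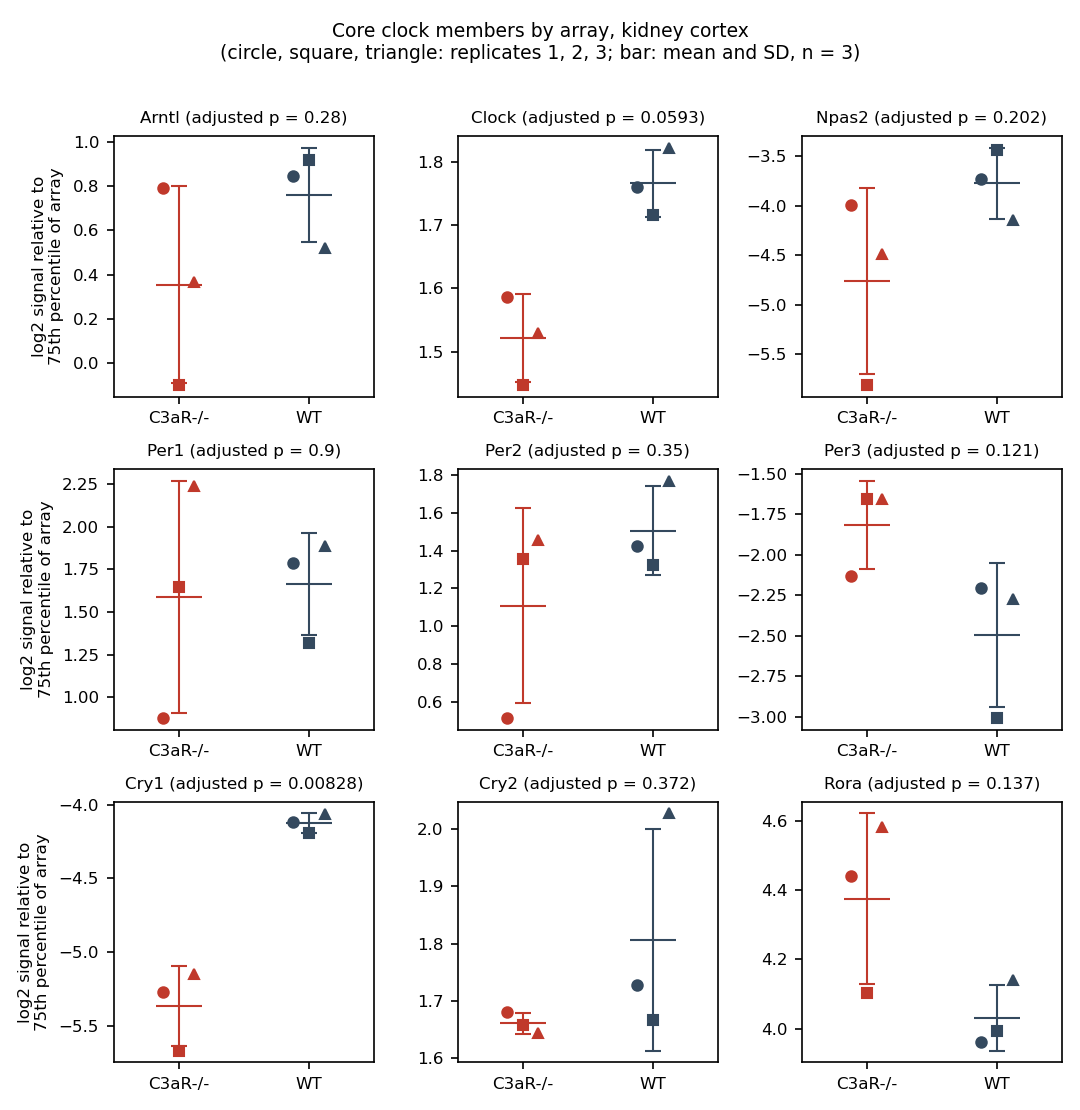
Level of each core clock gene by its brightest probe in 3 C3aR-/- arrays (left of each panel) and 3 WT arrays (right), as log2 signal relative to the 75th percentile of the array, with each panel on its own axis. Bars are means with SD (n = 3 each), and the groups stand apart in Clock, Per3 and Cry1, of which only Cry1 had an adjusted p under 0.05.

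Among the activators, Arntl encodes BMAL1, the partner without which the loop stops. By its brightest probe (A_52_P267651, mm9, chr7:120456978-120457037) Arntl stood at 0.79, -0.10 and 0.37 in C3aR-/- replicates 1 to 3, against 0.84, 0.92 and 0.52 in WT replicates 1 to 3. C3aR-/- replicate 1 lay within the WT range and the other two C3aR-/- arrays below it. The difference was -0.41 (SE 0.24, 95% interval -0.99 to 0.17, limma adjusted p = 0.28). The 2 probes farther upstream in the gene gave -0.50 and -0.29 and did not pass either. On all 3 probes C3aR-/- replicate 2 was the lowest of the 6 arrays.

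Npas2, which can stand in for Clock as the partner of BMAL1, had a single probe (A_52_P534749, chr1:39418941-39419000). Npas2 was at -3.99, -5.81 and -4.49 in C3aR-/- replicates 1 to 3 and at -3.73, -3.43 and -4.15 in WT replicates 1 to 3. The groups overlapped, and C3aR-/- replicate 2 was again the lowest array and the only one not well above background. The difference was -0.99 (SE 0.48, limma adjusted p = 0.202), or -0.88 with that array at its floor (the dimmest signal that counted as well above background there). Its 95% interval ran from -2.16 to 0.17, the widest of the 9 genes.

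Clock differed little in size, and its arrays agreed closely. By the brightest probe (A_55_P2746404, chr5:76639992-76640051) Clock was at 1.59, 1.45 and 1.53 in C3aR-/- replicates 1 to 3 and at 1.76, 1.72 and 1.82 in WT replicates 1 to 3. Every C3aR-/- array was below every WT array, yet the difference of -0.25 (SE 0.07) missed the threshold (limma adjusted p = 0.0593). It passed in 2 of 15 alternatives, at -0.28 with normexp background correction (adjusted p = 0.0239) and with a trended, robust variance (adjusted p = 0.0301). A probe 1385 bases upstream, A_52_P334670, was at 0.04 (SE 0.07) with overlapping groups. The probe for a clone sequence of the gene was at -0.30 (SE 0.10, adjusted p = 0.104), and another Clock probe was not well above background on any array.

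Per1, Per2 and Per3 encode the period proteins, which join the CRY proteins in the repressing complex. Per1 and Per2 also respond quickly to signals such as cAMP and glucocorticoids, and Per3 is the member whose loss the clock tolerates best. Of the 3 genes, 0 passed in limma, and at an unadjusted p under 0.05 only Per3 would count, as higher.

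Per1 (A_55_P1970033, chr11:68923364-68923423) was at 0.88, 1.64 and 2.24 in C3aR-/- replicates 1 to 3 and at 1.79, 1.32 and 1.88 in WT replicates 1 to 3. The C3aR-/- arrays held both the lowest and the highest of the 6 values. The difference was -0.08 (SE 0.35, limma adjusted p = 0.9), and its sign turned to 0.28 without C3aR-/- replicate 1 and to 0.03 without WT replicate 3. The second Per1 probe was not well above background on any array. The 14 immediate early genes, which respond to handling and stimuli within minutes, averaged -0.71, -0.64 and -0.30 in C3aR-/- replicates 1 to 3. Their average was -0.49, -0.50 and 2.01 in WT replicates 1 to 3, so WT replicate 3 stood far above the rest. Of these 14 genes 0 passed in limma and 0 reached an unadjusted p under 0.05. Their median difference was -0.70, and 13 of 14 were below 0. The 13 glucocorticoid-induced genes likewise had 0 calls in limma, 0 at an unadjusted p under 0.05, and a median difference of 0.04. Their average level was 1.33, 1.68 and 2.27 in C3aR-/- replicates 1 to 3, the same order as Per1, and 1.80, 1.68 and 1.98 in WT replicates 1 to 3. The share of all genes with that order in the C3aR-/- arrays was not counted. The part of either list in the Per1 values was not tested.

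Per2 (A_55_P2737144, chr1:93312595-93312654) was at 0.51, 1.36 and 1.46 in C3aR-/- replicates 1 to 3 and at 1.42, 1.32 and 1.77 in WT replicates 1 to 3. C3aR-/- replicate 1 alone lay far below the other 5 arrays. The difference was -0.40 (SE 0.27, 95% interval -1.06 to 0.27, limma adjusted p = 0.35), and it was -0.10 without C3aR-/- replicate 1. The upstream probe A_52_P536869 gave -0.43 (SE 0.13, adjusted p = 0.0809) with groups that did not overlap.

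Per3 was the only period gene with a positive difference. At A_55_P2752088 (chr4:150378473-150378532) its level was -2.13, -1.66 and -1.66 in C3aR-/- replicates 1 to 3 and -2.21, -3.01 and -2.27 in WT replicates 1 to 3. Every C3aR-/- array was above every WT array, though replicate 1 of C3aR-/- cleared WT replicate 1 by little. The difference of 0.68 (SE 0.25, 95% interval 0.07 to 1.29) did not pass in limma (adjusted p = 0.121). It passed at 0.54 with normexp background correction (adjusted p = 0.0368). Without WT replicate 2, the lowest array, it fell to 0.42 (adjusted p = 0.188), and with any 1 array left out it did not pass. Probe A_66_P137063, 7135 bases upstream, read -2.93, -1.91 and -1.90 in C3aR-/- replicates 1 to 3 and -3.24, -3.67 and -3.08 in WT replicates 1 to 3. That probe gave a larger difference of 1.08 (SE 0.32, adjusted p = 0.0769), which passed at 1.42 without C3aR-/- replicate 1 (adjusted p = 0.0246). It fell to 0.91 without C3aR-/- replicate 2, C3aR-/- replicate 3 or WT replicate 2 (adjusted p = 0.178 to 0.192). A further Per3 probe was not well above background on any array.

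**Figure D2:**
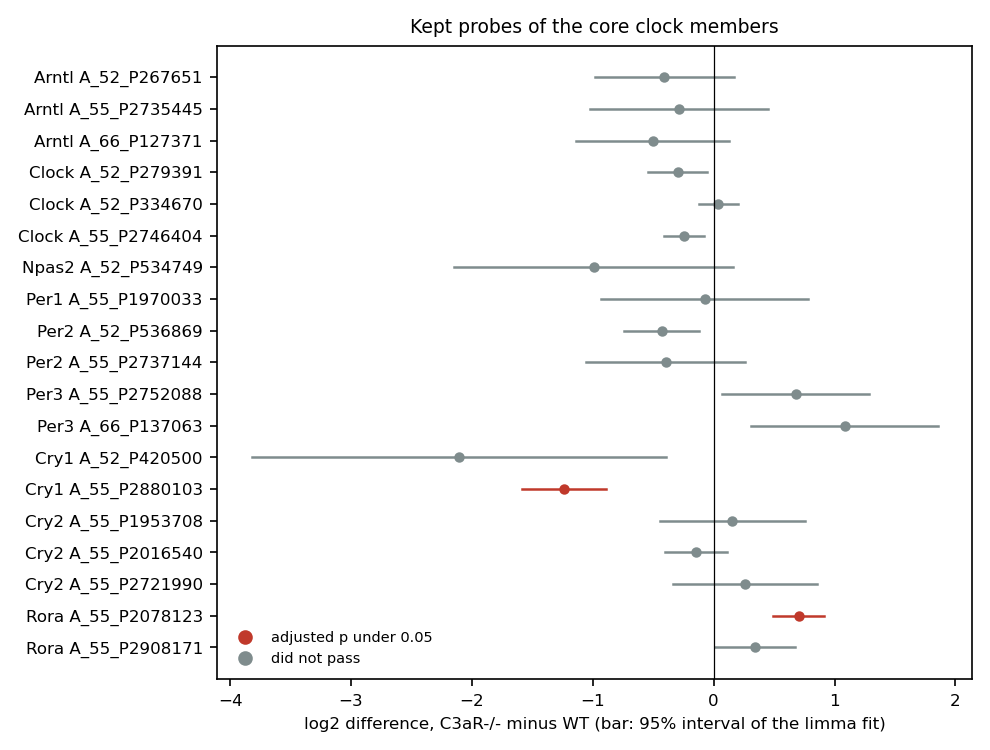
Difference C3aR-/- minus WT on the log2 scale for the 19 tested probes of the 9 genes, with 95% intervals of the limma fit over all probes. One Cry1 probe, at -1.24, and one Rora probe, at 0.70, had an adjusted p under 0.05 (red), and the second probe of each gene lay on the same side of 0. The second Cry1 probe is drawn at its fitted value, although no C3aR-/- array was well above background there.

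Cry1 and Cry2 encode the cryptochromes, the strongest repressors of the loop. Cry1 was read by A_55_P2880103 (chr10:84647094-84647153), which lies toward the 5' end of this minus-strand gene. Its level was -5.27, -5.67 and -5.15 in C3aR-/- replicates 1 to 3 and -4.12, -4.19 and -4.06 in WT replicates 1 to 3. Every C3aR-/- array lay far below every WT array, and the WT arrays agreed closely. The difference was -1.24 (SE 0.14, 95% interval -1.58 to -0.89, limma adjusted p = 0.00828). In processed signal this was 18.4, 16.3 and 20.7 in C3aR-/- replicates 1 to 3 and 39.3, 36.2 and 41.0 in WT replicates 1 to 3. These are dim values: C3aR-/- replicate 2 was not well above background, and with that array at its floor the difference was -1.17.

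A second Cry1 probe, A_52_P420500 (chr10:84594731-84594790), lay 52363 bases away toward the 3' end. It read -5.40, -6.32 and -6.43 in C3aR-/- replicates 1 to 3, none of them well above background, and -2.34, -4.88 and -4.60 in WT replicates 1 to 3. WT replicate 1 was far above the other arrays. With the C3aR-/- arrays set to their floors where below them, Cry1 was at least 2.73-fold lower in C3aR-/- by this probe, and at least 1.57-fold lower without WT replicate 1, an alternative chosen after seeing the data. The probe did not pass in limma (adjusted p = 0.103). Both Cry1 probes entered the test only through the WT arrays, on which they were well above background. Cry1 passed in the 14 alternatives that tested it (adjusted p = 0.00755 to 0.0396), of which 13 share that way of entry and 1 applies no filter. Its size moved more, from -0.50 with normexp, which adds an offset of 50 to each signal, to -1.67 with the mean of both probes. When a probe had to be well above background on each of the 6 arrays, no Cry1 probe was left. The E-box and E'-box printed above are in the window of this gene.

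Cry2 did not pass. It was at 1.68, 1.66 and 1.64 in C3aR-/- replicates 1 to 3 and at 1.73, 1.67 and 2.03 in WT replicates 1 to 3 (A_55_P2016540, chr2:92243807-92243866). The C3aR-/- arrays agreed closely, and WT replicate 3 set the mean difference of -0.15 (SE 0.11, limma adjusted p = 0.372). The other probes of the gene were at 0.16 and 0.26, so the mean of the 3 probes was 0.09 and no direction is given for Cry2. The difference between the changes of Cry1 and Cry2 was not tested.

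Rora encodes an orphan receptor that activates Arntl. Its brightest probe (A_55_P2908171, chr9:69227536-69227595) was at 4.44, 4.10 and 4.58 in C3aR-/- replicates 1 to 3 and at 3.96, 3.99 and 4.14 in WT replicates 1 to 3. C3aR-/- replicate 2 fell inside the WT range, and the difference of 0.34 (SE 0.13) did not pass (limma adjusted p = 0.137). The probe A_55_P2078123, 762 bases upstream on the same transcript (chr9:69226774-69226833), was at 0.99, 0.79 and 1.06 in C3aR-/- replicates 1 to 3 and at 0.25, 0.23 and 0.25 in WT replicates 1 to 3. The groups were well apart there, by 0.70 (SE 0.09, limma adjusted p = 0.0115 over all probes). This probe passed in all 14 alternatives run at the probe level, at 0.58 to 0.78 (adjusted p = 0.0022 to 0.0499). With the mean of the 2 probes Rora passed as a gene, at 0.52 (adjusted p = 0.0351). A further probe, for another transcript, was not well above background on any array.

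The spread between arrays of one genotype was wide for several members. The SD over the C3aR-/- arrays was 0.45 for Arntl, 0.94 for Npas2, 0.68 for Per1 and 0.52 for Per2, against a median of 0.11 over all genes. In WT arrays the same genes had SDs of 0.21, 0.36, 0.30 and 0.24, against a median of 0.10. Clock, with 0.07 in C3aR-/- and 0.05 in WT arrays, was below the median in both. The difference in spread between genotypes was not tested.

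Among the 3 C3aR-/- arrays, Arntl and Npas2 were highest in replicate 1 and lowest in replicate 2, an order that 23.7% of all genes tested had. Nfil3, a repressor of D-box genes, had the same order, at 2.51, 1.02 and 1.89 in C3aR-/- replicates 1 to 3 and 2.10, 2.90 and 2.50 in WT replicates 1 to 3. Dbp, an activator that binds D-boxes and a direct target of the BMAL1 pair, had the opposite order, as did 16.7% of all genes, at 1.49, 3.60 and 2.96 in C3aR-/- replicates 1 to 3 and 1.51, 1.40 and 1.68 in WT replicates 1 to 3. So Dbp of C3aR-/- replicate 1 lay inside the WT range while the other two arrays were well above it. Over the 6 arrays Pearson's r was 0.98 between Arntl and Npas2 and -0.95 between Arntl and Dbp. Arntl and Per2 had r = -0.28, and Per1 and Per2 had r = 0.82. Among the C3aR-/- arrays, Per1 and Per2 were lowest in replicate 1 and highest in replicate 3, a different order. C3aR-/- replicate 1 stood apart over the whole array as well, and its part in these values was not tested. The correlations describe 6 points that share each array's scaling and fall into 2 genotypes.

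**Figure D3:**
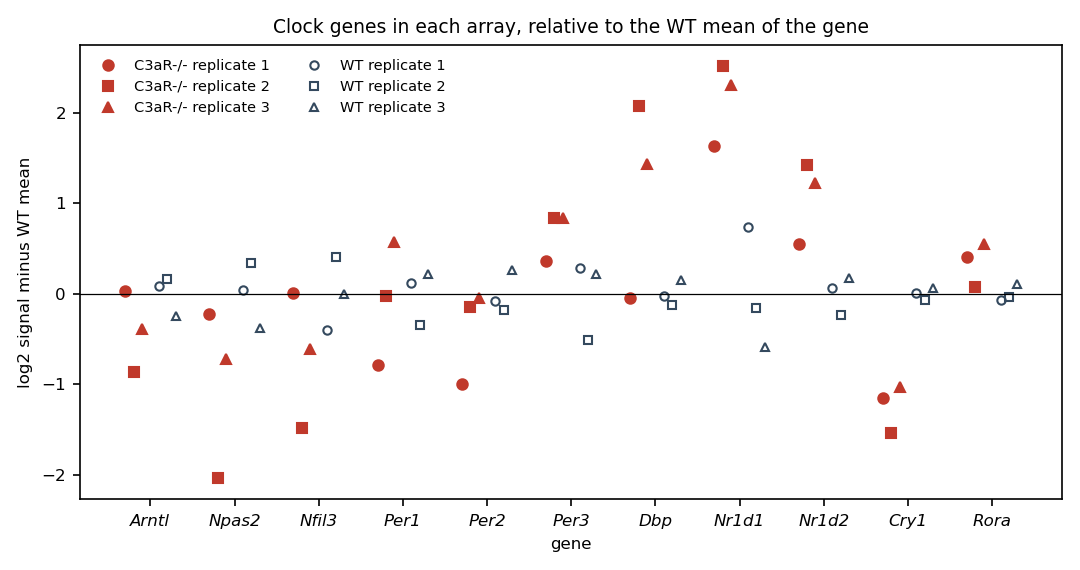
Each array's log2 signal minus the WT mean of that gene, for 11 clock genes, with filled red symbols for C3aR-/- replicates and open symbols for WT replicates. C3aR-/- replicate 1 (circle) lies near 0 for Arntl, Nfil3 and Dbp, where C3aR-/- replicates 2 and 3 lie away from it, and all 3 C3aR-/- arrays lie above the WT arrays for Nr1d1 and Nr1d2 and below them for Cry1.

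Differences taken within an array are free of its scaling. Arntl minus Per2 was 0.28, -1.45 and -1.09 in C3aR-/- replicates 1 to 3 and -0.58, -0.40 and -1.25 in WT replicates 1 to 3. The means, -0.75 ± 0.91 (SD, n = 3) in C3aR-/- and -0.74 ± 0.45 (SD, n = 3) in WT, differed by less than the spread, and the difference of -0.01 ran from -0.53 to 0.34 with 1 array left out. Arntl minus Nr1d1 was 2.93, 1.15 and 1.83 in C3aR-/- replicates 1 to 3 and 3.87, 4.85 and 4.88 in WT replicates 1 to 3. Here the groups did not overlap, with means of 1.97 ± 0.90 (SD, n = 3) in C3aR-/- and 4.53 ± 0.57 (SD, n = 3) in WT. The difference between these means was not tested, and Nr1d1 alone of the pair passed on its own.

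Around the 9 members, 29 further clock genes were listed, of which 26 were tested. Of these, 3 passed as higher, 0 as lower and 23 did not pass in limma, a share of 11.5% against 14.3% of all genes. The groups did not overlap in 9 of the 26 (34.6%, against 41.3% of all genes), and the median was 0.02, as over all genes.

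Both REV-ERB genes were higher in C3aR-/- cortex. Each is known to encode a repressor of Arntl, Npas2 and Cry1, and a link to the levels of those genes here was not tested. Nr1d1 was at -2.14, -1.25 and -1.47 in C3aR-/- replicates 1 to 3 and at -3.03, -3.93 and -4.36 in WT replicates 1 to 3, 4.44-fold higher (log2 difference 2.15, SE 0.39, limma adjusted p = 0.0242). Nr1d2 was at 1.40, 2.27 and 2.07 in C3aR-/- replicates 1 to 3 and at 0.91, 0.61 and 1.02 in WT replicates 1 to 3, 2.10-fold higher (log2 difference 1.07, SE 0.24, limma adjusted p = 0.0392). Neither group overlapped the other for either gene, and the 2 further Nr1d2 probes gave 1.05 and 0.88. The call of Nr1d1 was lost in 6 of 15 alternatives and that of Nr1d2 in 7 of 15, with highest adjusted p values of 0.0772 and 0.113 and smallest differences of 1.31 and 0.89. In both genes C3aR-/- replicate 1 was the C3aR-/- array nearest to WT.

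The remaining call was Csnk1a1, a casein kinase gene, by its brightest probe at 0.25 (SE 0.06, limma adjusted p = 0.0376). Another of its 6 tested probes passed in the opposite direction at -0.39 (adjusted p = 0.0304 over all probes), and their mean was at -0.10, so no direction is given. Tef, a D-box activator like Dbp, was at 0.41 (SE 0.13, adjusted p = 0.0871), with one of its 4 probes passing at 0.95. Dbp at 1.15 (SE 0.52, adjusted p = 0.179) and Nfil3 at -0.70 (SE 0.40, adjusted p = 0.278) did not pass. Without C3aR-/- replicate 1, 5 of the 26 passed, all higher: Nr1d1, Nr1d2, Dbp at 1.75 (adjusted p = 0.0186), Tef at 0.55 (adjusted p = 0.027) and Fbxl21, an F-box gene. Without C3aR-/- replicate 2 or 3, or WT replicate 2 or 3, 0 of the 26 passed in limma, where 3 to 6 reached an unadjusted p under 0.05, and without WT replicate 1 only Nr1d1 passed. Fewer arrays also gave fewer calls over all genes, at 3.55% to 8.23%.

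**Figure D4:**
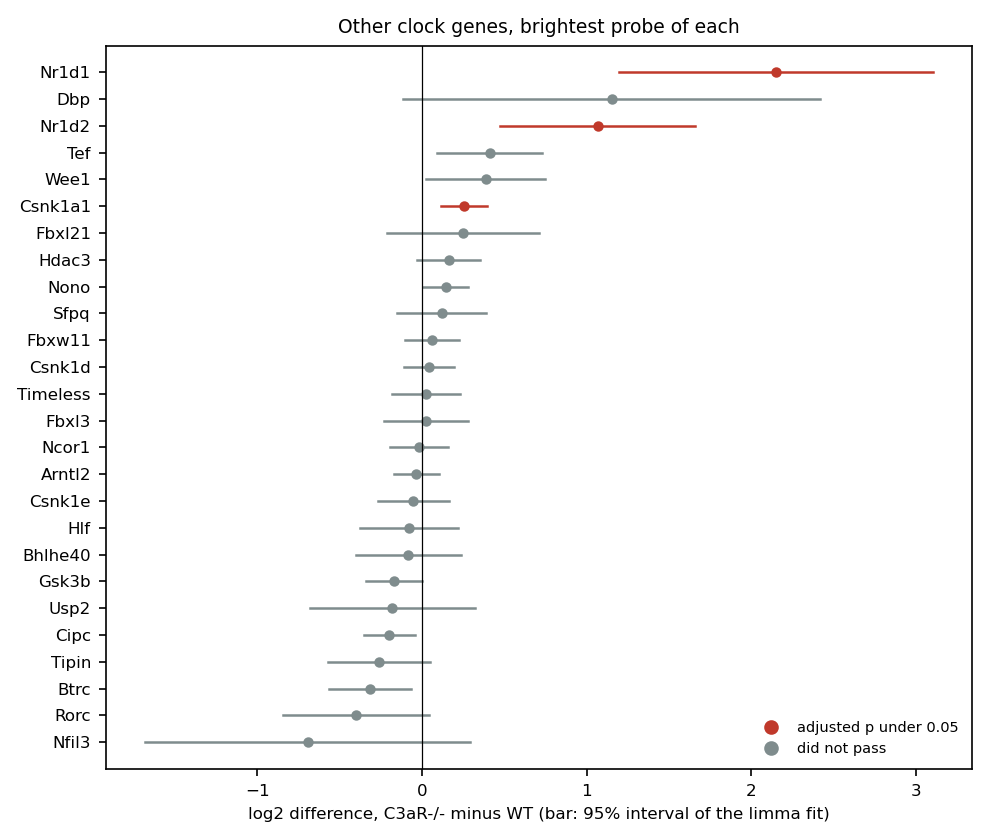
Difference C3aR-/- minus WT on the log2 scale for the 26 other clock genes tested, by the brightest probe of each, with 95% intervals of the limma fit. Nr1d1, Nr1d2 and Csnk1a1 (red) had an adjusted p under 0.05, and other probes of Csnk1a1 disagree in sign.

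The genes most like Arntl over the 6 arrays, by Pearson's r among named genes, were Rnu2-10 (0.99), Nelfb (0.99), Chdh (0.99), Zfp422 (0.99) and Krtap19-4 (0.98). For Per2 they were Vmn1r52 (0.99), Rnd3 (0.99), Pcdhb22 (0.98), Fndc3a (0.98) and Aifm3 (0.98). None of these 10 genes passed in limma. These values of r rest on 6 arrays. At the lower cut of r over 0.9, 244 of the 20489 genes tested, named or not, were counted for Arntl and 194 for Per2.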

How the data were processed

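Per the file headers, the authors read each one-colour Cy3 array with Agilent Feature Extraction 10.7.1.1, which deposited per spot a processed signal (intensity after background subtraction), mean and local background intensities, and flags. The authors also deposited a log2 table of the same arrays, with no normalisation stated in the sources used here, which was one of the alternatives. Probe coordinates are those of the array files (mm9). Gene names came from RefSeq accessions (GRCm38.p6, 32994 of 56605 probes matched) or else from the array files. Promoter sequences are RefSeq's, on GRCm38.p6.

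The processed signal was taken to log2, and each array's 75th percentile (662 to 827 before the log) was subtracted. Control spots and flagged outlier spots were left out (106 probes had an array with no other spot), and spots of one probe were averaged. A named probe was kept where all 3 arrays of either genotype had it well above background (30866 probes), and the brightest stood for each of 20489 genes. limma 3.58.1 in R 4.3.3 (lmFit, eBayes) gave two-sided p-values, adjusted by Benjamini-Hochberg at 0.05. Every adjusted p is from limma. The fit was run on simulated data with independent noise and no slide effect. That simulation cannot show how a slide effect, or arrays that share an animal, would alter the p-values. The number of arrays limits precision.

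The members, lists and tests were chosen with earlier results of these data known. The naming rule took all 9 members with every probe, called genes among the other clock genes, and the 5 genes closest to Arntl and to Per2. Dbp, Tef, Nfil3 and Fbxl21 were named after their values were seen. No column of the files was left unmapped. Alternatives covered background correction, scaling, the deposited table, the filter, the probe summary, the variance model, a replicate block and leaving out each array.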

Additional observations from a re-analysis of the deposited data

How the results depend on the processing

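Of the 9 core clock genes, 1 passed as reported and with any 1 array left out. The count was 3 with normexp (Clock, Per3 and Cry1), 2 with the mean of a gene's probes (Cry1 and Rora), 2 with a trended, robust variance (Clock and Cry1), and 0 of 7 when each of the 6 arrays had to have a probe well above background, which removes Cry1 and Npas2 (limma, with 3 at an unadjusted p under 0.05). By probe, 2 passed as reported, 4 with normexp, 1 with that strict filter, and 2 to 3 without 1 array. Of the other clock genes, 3 passed as reported, 0 to 5 without 1 array, and 0 with dim probes kept, so that more genes were tested (7 at an unadjusted p under 0.05). With the replicate block 0 passed (6 at an unadjusted p under 0.05). The count over all genes was 2935 as reported, 936 with dim probes kept, 657 with the replicate block and 727 to 1687 without 1 array. Deviations of same-numbered arrays from their group means correlated at 0.04, -0.03 and -0.07 over all genes. These values cannot tell whether such arrays share a factor that moves only some genes. A call lost under the block is no measure of effect size.

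Arntl minus Nr1d1, at -2.56 as reported, was -1.57 with normexp and -3.04 to -2.15 without 1 array. Signs turned for Cry2 (0.090) and Csnk1a1 (-0.10) with the mean of the probes. Without 1 array they turned for Per1 (-0.40 to 0.28), for Arntl probe A_55_P2735445 (-0.58 to 0.013) and for Cry2 probe A_55_P1953708 (-0.13 to 0.35), none of which passed. The cause was not tested. A slide block was not run, since each slide held 1 genotype. Signal over background limits Cry1, whose C3aR-/- values lie near the floors of those arrays (-5.47 to -5.28), and Npas2 in C3aR-/- replicate 2. It also limits Per2 probe A_52_P536869, at -5.31 to -5.19 in C3aR-/- arrays. Nr1d1, read by 1 tested probe, was at -4.36 to -3.03 in WT arrays, whose floors were -5.18 to -5.09. Its difference fell from 2.15 to 1.31 with normexp.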
